A study of Mus musculus with 5 samples.

Results

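The miR-181 family of mouse comprises 4 mature miRNAs, mmu-miR-181a, mmu-miR-181b, mmu-miR-181c and mmu-miR-181d, and was followed through small RNA libraries of testis cells from C57BL/6 mice. The members were taken by their deposited names, and all 4 had counts in every library, out of 593 mature miRNA names with a count. There were 2 libraries of freshly isolated Thy1+ cells, a fraction enriched for spermatogonial stem cells by magnetic sorting with a Thy1.2 antibody, and 2 of the freshly isolated Thy1- cells depleted of them, which are titled as enriched for somatic cells although a further label repeats the stem cell name for them. The remaining library came from a germ cell culture derived from Thy1+ cells and kept for about 10 passages. The labels used here give the strain and no further allele or treatment. Whether the replicates were separate animals is not given, and p-values thus measure only the spread between these libraries, which may be technical. The culture is 1 library, so its differences have no replicate check of their own.

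miRNAs are short RNAs cut from hairpin precursors that guide Argonaute proteins to messenger RNAs, chiefly through the seed, bases 2 to 8 of the mature strand. Each hairpin gives a strand from its 5′ arm and a strand from its 3′ arm, and usually one of them is kept. The miR-181 miRNAs are known for setting T cell receptor sensitivity in developing thymocytes and are also found in many other tissues. The Thy1 antigen of the sort also marks T cells in mice. In bulk samples such as these, fewer cells of a type and less RNA per cell cannot be told apart.

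The mature sequences are shown because the members share their seed and differ at few other bases, on which the counting depends. They are from RefSeq (GRCm38.p6), written 5′ to 3′ with the seed in capitals.
mmu-miR-181a: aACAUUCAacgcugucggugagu
mmu-miR-181b: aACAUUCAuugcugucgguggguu
mmu-miR-181c: aACAUUCAaccugucggugagu
mmu-miR-181d: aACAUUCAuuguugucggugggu
Counted from the 5′ end, miR-181b and miR-181d differ over their shared 23 bases by the single substitution C12U, with the miR-181b base first. miR-181a differs from miR-181b by A9U, C10U and A21G. miR-181c equals miR-181a with the G at base 11 left out. Tags equally close to several names were few, between 11 and 79 of the 14270 to 165796 family counts per library.

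The family comes from 6 hairpins at 3 loci. Mir181a-1 (chr1:137966455-137966541, plus strand) and Mir181b-1 (chr1:137966639-137966718, plus strand) lie in an exon of the long non-coding RNA A430106G13Rik. They also lie in an intron of the transcript Gm4258, on its strand, and opposite an intron of the long non-coding RNA Gm26936. The nearest protein-coding gene is Ptprc, 96320 and 96143 bases away, which encodes the leukocyte surface protein CD45. Mir181a-2 (chr2:38852735-38852810, plus strand) and Mir181b-2 (chr2:38853830-38853918, plus strand) lie opposite an intron of Nr6a1, which encodes germ cell nuclear factor. Mir181c (chr8:84178873-84178961, minus strand) and Mir181d (chr8:84178716-84178787, minus strand) lie in an intron of Nanos3, on its strand, as GENCODE M21 annotates it. Nanos3 encodes an RNA-binding protein needed for germ cell development. These positions are in GRCm38.

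The libraries held 937002 and 947687 miRNA counts for Thy1+, 2548234 and 4909753 for Thy1-, and 5110007 for the culture. Marker miRNAs, summed in counts per 1000000 miRNA counts (CPM), set out how the libraries differed otherwise. The 7 white blood cell products (miR-142, miR-150, miR-155, miR-223 and miR-342) stood at 15158 and 26762 in Thy1+, 2339 and 1632 in Thy1-, and 980 in the culture. By the edgeR test described below, 5 of them were higher in Thy1+, among them miR-142-3p (14318 and 25271 against 1953 and 1294 CPM), and 0 were lower. The sum is mostly miR-142-3p, and both miR-342 products had lower fitted levels in Thy1+ without passing (miR-342-3p at -0.92 on the log2 scale). Of the miR-290 to miR-295 products of undifferentiated cells 7 of 8 tested were higher. All 3 red blood cell products (miR-144, miR-451 and miR-486) and both products of the gonadal miR-202 were lower. None of these lists kept a call when either Thy1+ library was left out. Of the miR-34 and miR-449 products of meiotic and later germ cells (4 tested), the mesenchymal list (5 tested) and the endothelial list (2 tested), 0 were called between the fresh fractions. The miR-34 and miR-449 sum stood apart between replicates, at 106897 and 23744 CPM in Thy1+, 49534 and 8587 in Thy1-, and 196385 in the culture. The part of any of these cell types in the results on miR-181 was not tested.

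mmu-miR-181a, the best studied member in thymocytes, was the most abundant in 4 of the 5 libraries. It stood at 9082 and 5869 CPM in the Thy1+ libraries, 6636 and 17425 in the Thy1- libraries and 5706 in the culture. The Thy1+ and Thy1- values overlapped, the second Thy1- library was far above the rest, and the culture was lowest, close to the second Thy1+ library. By abundance among all miRNAs it ranked between 9 and 42.

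mmu-miR-181d was the second most abundant member in 3 of the 4 fresh libraries and above miR-181a in the other. Its level was 3147 and 6195 CPM in Thy1+, with 4712 and 7595 in Thy1-, and 499 in the culture. The fresh groups overlapped and the culture was several-fold below them all. In the second Thy1+ library miR-181d passed miR-181a, at 6195 against 5869 CPM.

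The level of mmu-miR-181b was 2646 and 2336 CPM in Thy1+, with 3579 and 7457 in Thy1- and 783 in the culture. Here both Thy1+ libraries were below both Thy1- libraries, and the culture was lower again. mmu-miR-181c was the least abundant member in all 5 libraries, at 672 and 657 CPM in Thy1+, 899 and 1292 in Thy1- and 116 in the culture, with the same order of groups. Of all 425 miRNAs tested between the fresh fractions, 20.2% had both Thy1+ values below both Thy1- values, and 43.5% had them above. Between neighbours in the order, miR-181b and miR-181d in the second Thy1- library differed little (7457 and 7595 CPM), and the order of miR-181a and miR-181d depended on the library.

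Summed over the 4 members, the family took 1.55% of all miRNA counts in the first Thy1+ library (95% interval 1.53% to 1.58%) and 1.51% in the second (1.48% to 1.53%). In Thy1- it took 1.58% in the first library (1.57% to 1.60%) and 3.38% in the second (3.36% to 3.39%), and in the culture 0.710% (0.703% to 0.718%). These Clopper-Pearson intervals treat each read as a separate draw and leave out the spread between libraries. No molecular identifiers are described for the amplified reads, so the intervals may be too narrow even for counting error. The first Thy1- library was thus close to both Thy1+ libraries, and the second held more than any other.

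**Figure D1:**
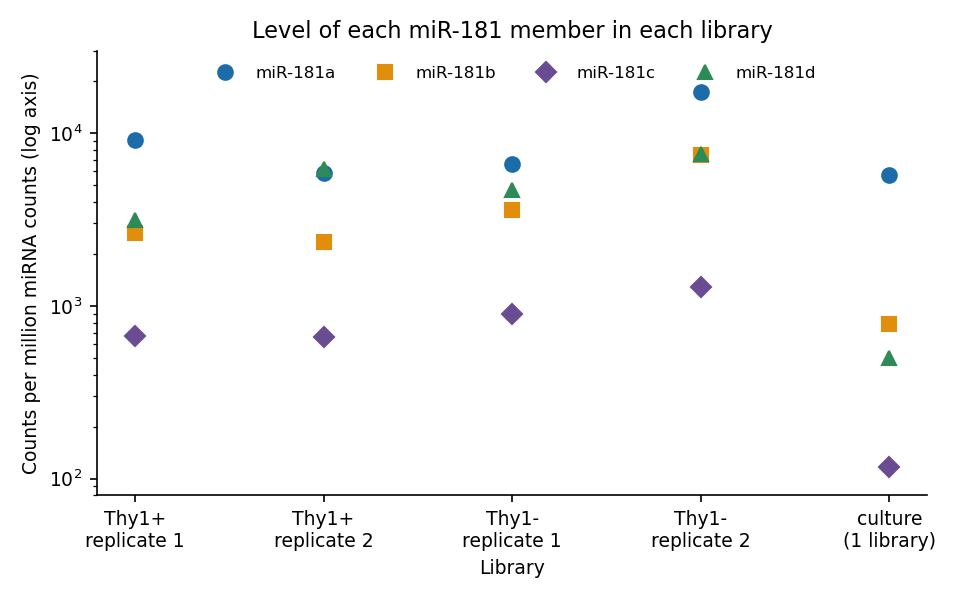
Level of each miR-181 member, in counts per 1000000 miRNA counts on a log axis, in each of the 5 libraries on the horizontal axis; each symbol is 1 library. All 4 members are lowest in the culture, with miR-181a at 5706 CPM and miR-181d at 499 CPM.

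The first comparison set the 2 fresh fractions against each other, Thy1+ with its enriched stem cells against Thy1-. All 4 members had lower fitted levels in Thy1+, and none passed the test. miR-181b came nearest. Its mean was 2491 ± 219 CPM in the Thy1+ libraries and 5518 ± 2742 CPM in the others (SD, n = 2), a log2 fold change of -1.74 (SE 0.57) with an edgeR adjusted p of 0.0543. The log2 fold change was -1.30 (SE 0.51) for miR-181c, -1.28 (SE 0.65) for miR-181a and -1.03 (SE 0.53) for miR-181d, with edgeR adjusted p of 0.0926, 0.179 and 0.179. By edgeR's quasi-likelihood test with adjustment over all miRNAs, 0 of 4 members were called, against 28.0% of the 425 miRNAs tested (20.2% higher, 7.76% lower). At an unadjusted p under 0.05, 2 of the 4 passed in edgeR, where 17.6% of all miRNAs did with a lower value. DESeq2 called 2 lower after adjustment, miR-181b and miR-181c, where it called 13.7% of all miRNAs lower. The median log2 fold change was -1.29 over the members and -0.07 over all miRNAs. Scaling to total counts, which moved the median of all miRNAs by 0.58, left all 4 values below 0, between -1.15 and -0.40, where the median of all miRNAs was 0.51. Without the second Thy1- library the values were nearer to 0, at -0.22 for miR-181a and -0.93 for miR-181b, and without the first Thy1- library miR-181a (-1.74), miR-181b (-2.11) and miR-181c (-1.49) were called lower in Thy1+ (edgeR adjusted p = 0.00834, 0.00154 and 0.0497), as were 9.64% of all miRNAs. In that fit only the Thy1+ pair gives the spread, and the lone Thy1- library is assumed to vary like it.

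The second comparison set the culture against the fresh Thy1+ fraction from which such cultures start. The fitted values differed in sign between members, and none passed the test. The log2 fold change was 1.23 for miR-181a (SE 0.74), -0.03 for miR-181b (SE 0.69), -0.86 for miR-181c (SE 0.68) and -1.53 for miR-181d (SE 0.71), and by edgeR 0 of 4 were called, against 22.3% of the 470 miRNAs tested (8.94% higher, 13.4% lower). None of the 4 had an unadjusted p under 0.05, and DESeq2 also called 0. The smallest edgeR adjusted p was 0.147, for miR-181d. These values hang on the scaling. Total count scaling moved the median of all miRNAs by -1.64, turned miR-181a to -0.39 and called miR-181c (-2.51) and miR-181d (-3.23) lower in the culture, as it did 35.7% of all miRNAs. In the same comparison with TMM scaling, 4 of 5 mesenchymal products were higher in the culture, and 3 of 7 white blood cell, 3 of 8 miR-290 to miR-295 and 1 of 3 red blood cell products were lower. By CPM alone the Thy1+ mean was 1.31-fold the culture value for miR-181a, 3.18-fold for miR-181b, 5.71-fold for miR-181c and 9.36-fold for miR-181d.

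Against the Thy1- fraction, miR-181c and miR-181d were lower in the culture. miR-181d had a log2 fold change of -2.62 (SE 0.76, edgeR adjusted p = 0.0277) and miR-181c one of -2.22 (SE 0.73, edgeR adjusted p = 0.0439). These are the 2 members encoded together on chromosome 8. By this test 2 of 4 members fell, where 16.8% of the 470 miRNAs did, and 34.9% were called in either direction. miR-181b, at -1.83 (SE 0.76), did not pass (edgeR adjusted p = 0.0956), though DESeq2 and total count scaling both called it lower (with 18.5% and 26.2% of all miRNAs), and miR-181a stood at -0.10 (SE 0.77). The single culture library was assumed to vary like the fresh groups. Both calls were lost when either Thy1+ library was left out, at -2.64 and -2.82 for miR-181d and -2.24 and -2.42 for miR-181c. Those libraries enter this comparison only through the filter, the scaling and the spread. miR-181c also no longer passed without the second Thy1- library (-1.75) or with tied tags left out (edgeR adjusted p = 0.0561). In the same comparison all 3 red blood cell products (miR-144 at -6.41, miR-451 at -6.88 and miR-486 at -4.18 on the log2 scale) and both miR-202 products (miR-202-3p at -3.78, miR-202-5p at -5.03) were called lower in the culture. Called higher there were miR-143 (1.98) and miR-199a-3p (1.74) of the 5 mesenchymal products, with 18.1% of all miRNAs. So were miR-34b-3p (4.01) and miR-34c (3.92) of the later germ cell list, but not miR-34b-5p (2.69) or miR-449a (-0.90). miR-155 (4.55) was the 1 product called of the 7 in the white blood cell list. The others reaching 100 CPM ran from -2.28 (miR-223) to 0.33 (miR-142-5p). Of the undifferentiated cell list only miR-292-5p (2.11) was called. The others reaching 100 CPM ran from -0.08 (miR-293) to 1.96 (miR-294). The part of these cells in the miR-181 values was not tested. Both culture comparisons use the same culture library. By CPM, all 4 members were lower in the culture than in each fresh library, as were 55.7% of the 470 miRNAs.

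**Figure D2:**
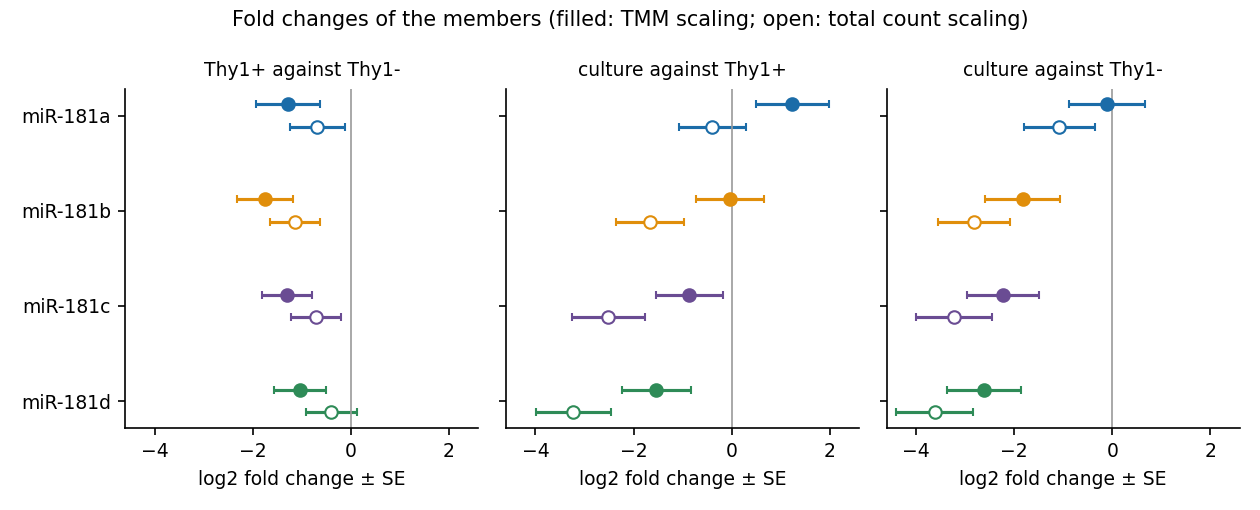
Log2 fold change with its SE for each member in the 3 comparisons, on the horizontal axis; filled points use TMM scaling and open points scaling to total counts. All points of the fresh comparison lie below 0, and miR-181a in culture against Thy1+ lies at 1.23 or -0.39 depending on the scaling.

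The make-up of the family does not depend on the scaling of libraries, and it showed how far the members parted in the culture. miR-181a made up 58.4% (57.6% to 59.2%) and 39.0% (38.2% to 39.8%) of the family in the Thy1+ libraries, 41.9% (41.4% to 42.4%) and 51.6% (51.4% to 51.8%) in the Thy1- libraries, and 80.3% (79.9% to 80.7%) in the culture. The culture value lay above all fresh values by more than they differed from each other. miR-181d made up 20.2% and 41.1% in Thy1+, 29.8% and 22.5% in Thy1-, and 7.02% in the culture. For every miR-181d count there were thus 11.4 counts of miR-181a in the culture, against 2.89, 0.947, 1.41 and 2.29 in the fresh libraries. With 1 culture library this difference was not tested.

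Between the fresh fractions, miR-181b was the only member whose shares did not overlap. It made up 17.0% and 15.5% of the family in Thy1+, 22.6% and 22.1% in Thy1- and 11.03% in the culture. The mean share was 16.3% ± 1.06 in Thy1+ and 22.3% ± 0.376 in Thy1- (SD, n = 2). An exact permutation test of that difference, run two-sided, could not go below 0.333 with 2 libraries a group and gave p = 0.333, or 1 after adjustment over the 4 shares. miR-181c made up 4.32% and 4.37% in Thy1+, 5.68% and 3.83% in Thy1-, and 1.64% in the culture. For miR-181a, miR-181c and miR-181d the fresh groups overlapped (exact permutation p = 1 each). Of the chromosome 8 members, there were 4.68, 9.42, 5.24 and 5.88 counts of miR-181d per count of miR-181c in the fresh libraries and 4.29 in the culture.

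**Figure D3:**
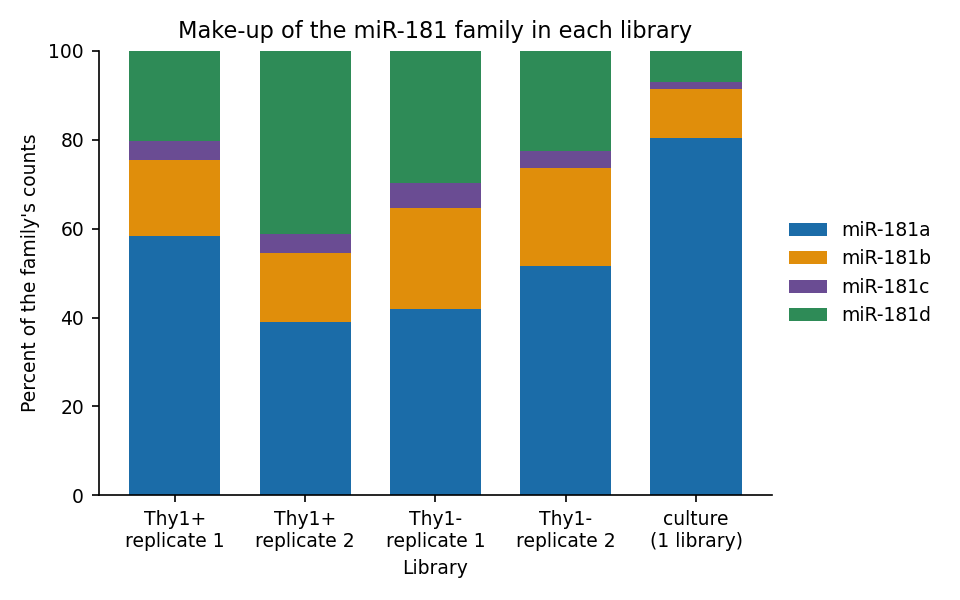
Percent of the family's counts held by each member (stacked bars, vertical axis) in each library. miR-181a takes 80.3% in the culture and between 39.0% and 58.4% in the fresh libraries, where miR-181d takes 20.2% to 41.1%.

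Because miR-181a and miR-181b are each made from both chromosome 1 and chromosome 2, their mature counts cannot be assigned to a locus, whereas the 3′ arms of miR-181a differ between its loci. The hairpins of miR-181a are shown to make this visible, from RefSeq (GRCm38.p6) with both mature arms in capitals. Their 5′ arms are the same, and their 3′ arms are not.
Mir181a-1: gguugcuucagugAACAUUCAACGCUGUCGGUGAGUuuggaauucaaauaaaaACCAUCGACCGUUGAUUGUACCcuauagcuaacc
Mir181a-2: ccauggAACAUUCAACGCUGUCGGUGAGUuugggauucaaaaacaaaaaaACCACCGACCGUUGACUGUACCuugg
The 3′ arms that were found in the tags are, with their own seeds in capitals:
miR-181a-1-3p: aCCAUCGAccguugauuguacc
miR-181a-2-3p: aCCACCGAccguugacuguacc
miR-181c-3p: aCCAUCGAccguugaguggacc
From miR-181a-1-3p, miR-181a-2-3p differs by U5C and U16C, and miR-181c-3p by U16G and U19G. The deposited name miR-181a-1* had collected all 3, the latter 2 through 2 permitted mismatches. The files also hold the name miR-181a-2*, with at most 18 counts in any library. Why the other miR-181a-2-3p tags stand under miR-181a-1* is not given in the sources used here. Exact tags of at least 18 bases of these arms numbered 811 and 474 in Thy1+, 2136 and 6111 in Thy1-, and 964 in the culture, of 830, 508, 2272, 6418 and 1017 counts under that name. With any further error, a miR-181a-2-3p tag, or a miR-181c-3p tag that reaches base 19, would exceed the mismatches allowed. Only exact tags of all arms were therefore compared. Exact tags of the other 3′ arms of the family were sought in the same way, and none were found. Only tags placed on mature miRNAs of miRBase 12.0 could be searched, so this does not show that those arms were absent.

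miR-181a-2-3p, from the locus opposite Nr6a1, was the 1 arm of these 3 that passed the test between the fresh fractions. It stood at 153 and 139 CPM in Thy1+, with 510 and 622 in Thy1- and 73.0 in the culture. Both Thy1- libraries were several-fold above both Thy1+ libraries. With the arms counted as names of their own, it fell in Thy1+ with a log2 fold change of -2.50 (SE 0.54, edgeR adjusted p = 0.0185 over 428 names, of which 7.94% were called lower). This recount was chosen after the tag sequences had been seen. The call held under total count scaling (-1.95) and was lost when either Thy1+ library was left out (-2.72 and -2.26, edgeR adjusted p = 0.126 and 0.145).

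miR-181a-1-3p, from chromosome 1, stood at 136 and 148 CPM in Thy1+, 179 and 273 in Thy1- and 64.6 in the culture, and did not pass, with a log2 fold change of -1.25 (SE 0.57, edgeR adjusted p = 0.128). miR-181c-3p stood at 577 and 213 CPM in Thy1+, with 149 and 350 in Thy1-, and 51.1 in the culture, with overlapping fresh groups (log2 fold change 0.13, SE 0.73). In culture against Thy1+ none of the 3 arms passed (13.3% of 473 names were called lower), and neither did any in culture against Thy1- (16.7%), where miR-181a-2-3p came nearest (log2 fold change -1.92, SE 0.71, edgeR adjusted p = 0.0671). That arm did pass with DESeq2 (adjusted p = 0.0184), with total count scaling (-2.95, edgeR adjusted p = 0.0199) and without the first Thy1- library (-2.38, edgeR adjusted p = 0.0493). Total count scaling also called miR-181c-3p lower in culture against Thy1+ (-2.95, edgeR adjusted p = 0.0453).

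Of these tags, miR-181c-3p made up 66.7% (63.3% to 69.9%) and 42.6% (38.1% to 47.2%) in Thy1+, 17.8% (16.2% to 19.5%) and 28.1% (27.0% to 29.2%) in Thy1-, and 27.1% (24.3% to 30.0%) in the culture. miR-181a-2-3p made up 17.6% and 27.8% in Thy1+, 60.8% and 49.9% in Thy1-, and 38.7% in the culture. Neither share overlapped between the fresh groups. The exact permutation p was 0.333 for each, the smallest possible here, and 0.944 after adjustment over 17 tag measures. Only the 2 hairpins of miR-181a and that of miR-181c enter these shares. Of the 17 tag measures, the percent of 3′ arm for miR-181c and miR-181a and the mean tag length of miR-181a and miR-181b also did not overlap. The remaining measures overlapped. If the libraries of the 2 groups were interchangeable, each measure would still separate them with a probability of 0.333. The shares of the arms add to a whole, so the measures are not all independent.

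**Figure D4:**
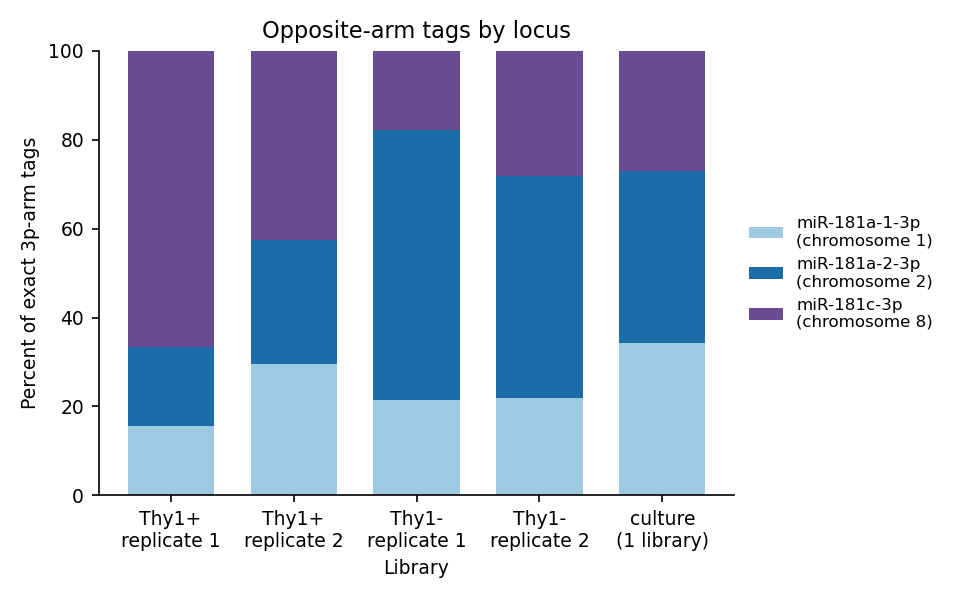
Percent of the exact 3′ arm tags that came from each of 3 hairpins (stacked bars, vertical axis) in each library. miR-181c-3p from chromosome 8 takes 66.7% and 42.6% in Thy1+, and miR-181a-2-3p from chromosome 2 takes 60.8% and 49.9% in Thy1-.

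The balance of the arms differed between hairpins. Of the exact tags of miR-181c, the 3′ arm held 49.3% (46.3% to 52.3%) and 29.6% (26.2% to 33.2%) in Thy1+, 16.03% (14.6% to 17.6%) and 25.1% (24.1% to 26.2%) in Thy1-, and 34.3% (30.9% to 37.8%) in the culture. In the first Thy1+ library both arms of miR-181c were thus about equally frequent. For miR-181a, with its 2 hairpins summed, the 3′ arm held 3.69% and 5.72% in Thy1+, 11.4% and 5.83% in Thy1-, and 2.88% in the culture. In every library the 3′ arm share was larger for miR-181c than for miR-181a. The fresh groups did not overlap for either share (exact permutation p = 0.333 each, 0.944 after adjustment), though for miR-181a the nearest values, 5.72% and 5.83%, were close.

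The members also differed in where their tags ended. The commonest tag of miR-181b was 21 bases long and the next was 23, as given in the files with the seed in capitals.
miR-181b, 21 bases: aACATTCAttgctgtcggtgg
miR-181b, 23 bases: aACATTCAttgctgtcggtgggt
The 21-base tag held 34.5% and 31.5% of the miR-181b counts in Thy1+, 30.3% and 31.2% in Thy1-, and 41.5% in the culture, and the 23-base tag 15.7% and 21.5%, 22.7% and 21.9%, and 10.9%. For miR-181a the full 23-base tag led, with 46.6% and 42.7% in Thy1+, 39.7% and 42.0% in Thy1-, and 38.3% in the culture. For miR-181d it led with 43.3% and 56.1%, 57.9% and 55.5%, and 44.8%. The tag of 22 bases, which is the full length of miR-181c, held between 63.1% and 76.0% of that member. Averaged over counts, miR-181b tags were shortest in the culture, at 21.3 bases, against 21.5 and 21.6 in Thy1+ and 21.7 in both Thy1- libraries. The culture mean was also lowest for miR-181a (21.86) and miR-181c (21.53), but not for miR-181d. Between the fresh fractions miR-181a went the other way from miR-181b, at 22.06 and 22.02 in Thy1+ against 21.90 and 21.92 in Thy1-. The exact permutation p was 0.333 for both members, 0.944 after adjustment. The deposited placements end with the mature reference, so longer tags are not seen.

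The culture also stood apart in the last base. Tags reaching the last base of the deposited reference and matching it at every earlier base were examined, which for miR-181b has 23 bases, 1 fewer than the RefSeq sequence above. An A in place of the U at that base was found in 9.96% (9.45% to 10.5%) for miR-181a in the culture, against 5.37% and 6.78% in Thy1+ and 6.82% and 6.35% in Thy1-. For miR-181c it was 10.8% (8.06% to 14.0%) in the culture, against 4.57%, 4.37%, 3.15% and 4.52% in the fresh libraries. For miR-181d it was 4.12% (3.09% to 5.37%), against 1.77%, 2.80%, 2.08% and 2.69%. For miR-181b it was 8.88% (6.79% to 11.4%), against 6.49%, 6.70%, 5.16% and 6.71%. With 1 culture library these differences were not tested across replicates. For each member the culture value was the highest of the 5, but its interval overlapped those of 3 of the 4 fresh libraries for miR-181b and that of the second Thy1+ library for miR-181d. Tags began at the annotated first base for 98.2% to 99.7% of the counts of every member in every library, which kept the place of the seed. Such tags may hold up to 2 mismatches, so these percentages do not show that the seed bases were unchanged.

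The base that separates miR-181b from miR-181d was examined, since a C-to-T change there turns the former into the latter. At the matching base of miR-181a (C12T, tags of at least 20 bases), T was found in 0.271% (0.161% to 0.428%) and 2.39% (1.95% to 2.89%) of the Thy1+ tags, 0.640% (0.507% to 0.797%) and 1.76% (1.66% to 1.86%) of the Thy1- tags, and 0.367% (0.291% to 0.456%) of the culture tags. At that of miR-181c (C11T) the values were 0.366% (0.0444% to 1.32%) and 8.77% (6.47% to 11.6%), 0.411% (0.178% to 0.808%) and 7.28% (6.60% to 8.01%), and 0.610% (0.126% to 1.77%). The second library of both fresh groups was above the first at both sites. Smaller shares showed the same order of the fresh libraries at some other bases. At C3T of miR-181a they were 0.151% and 0.530% in Thy1+, 0.122% and 0.395% in Thy1-, and 0.181% in the culture. At C7T of miR-181d they were 0.0766% and 0.508%, 0.117% and 0.363%, and 0.137%, and at C7T of miR-181b 0.0580% and 0.592%, 0.130% and 0.418%, and 0.151%. At C16T of miR-181a the share was between 0.0726% and 0.221% in the 5 libraries, without that order in Thy1+. Among tags of miR-181b and miR-181d together, T at base 12 made up 60.2% and 77.1% in Thy1+, 62.6% and 55.5% in Thy1-, and 45.3% in the culture. The part of such changes in the miR-181d level was not tested.

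**Figure D5:**
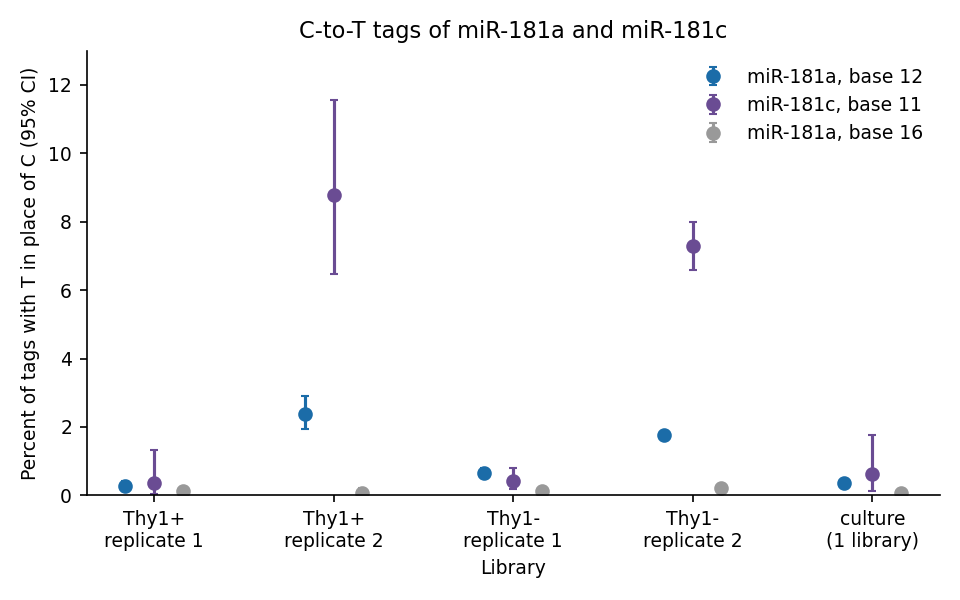
Percent of tags with T in place of C, with 95% Clopper-Pearson intervals, at base 12 of miR-181a, base 11 of miR-181c and, in grey, base 16 of miR-181a, in each library. The second Thy1+ and second Thy1- libraries reach 8.77% and 7.28% for miR-181c, and the other 3 libraries stay at or below 0.640% at the 3 sites plotted.

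The miRNAs with the most similar profiles over the 5 libraries were sought among 229 others with a mean of at least 100 CPM. Likeness was the root mean square difference of centred log2(CPM + 1) values, given as a description. The family sum was closest to miR-125b* (0.092 log2 units), which stood at 156 and 160 CPM in Thy1+, 175 and 313 in Thy1- and 75.3 in the culture. The median difference over the 229 was 1.10. miR-181a was closest to miR-140* (0.116) and miR-125a-3p (0.200), miR-181b to miR-181a-1* (0.300) and miR-99a (0.352), miR-181c to miR-148a (0.202) and miR-106b* (0.311), and miR-181d to miR-196b (0.138) and miR-708 (0.258). Each member had a miRNA from outside the family closer to it than any other member was, for miR-181b by a narrow margin (0.352 against 0.355). The pool of 229 is far larger than the family, which favours a closer match there. For single members the median difference over the pool was between 1.20 (miR-181c) and 1.29 (miR-181d). Among the members, miR-181b and miR-181c (0.355) and miR-181c and miR-181d (0.400) were closest, and miR-181a and miR-181d (1.22) farthest apart.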

How the data were processed

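Each of the 5 libraries was deposited as a table of distinct small RNA tags with their counts and their placements on mature miRNAs of miRBase 12.0, per the file headers. The stated tag lengths are 15 to 35 bases; the deposited placements run from 15 to 25 bases with up to 2 mismatches. The submitters' processing notes name DESeq. No source used here names an aligner or genome build, and the adapter removal was not given in the sources used here.

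Each tag was given to the name or names with the fewest mismatches, its count split equally among ties. Counts were tested with edgeR 4.0.16 (R 4.3.3; TMM scaling, filterByExpr, quasi-likelihood test, two-sided) over all miRNAs, with Benjamini-Hochberg adjustment and a threshold of 0.05. Fresh fractions were fitted on their 4 libraries and culture comparisons on all 5, with a common biological coefficient of variation of 42.8% and 42.9%. DESeq2 1.42.0, other scalings, filters and left-out libraries were alternatives. Shares have Clopper-Pearson intervals and exact permutation tests (Python 3.11.15, scipy 1.17.1). The 3′ arm fit was added after the tags had been seen. The members and lists were chosen with earlier results of these data known. Given beside the members are their 3′ strands, main tags, the miRNAs of most similar profile with a mean of at least 100 CPM, and values of single marker products only where they reach 100 CPM.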

Additional observations from a re-analysis of the deposited data

How the results depend on the processing

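With 2 libraries a group and 1 culture, calls near the threshold moved easily. The least abundant member had at least 595 counts in every library, and the effect of depth on the calls was not tested. Against 0 members called between Thy1+ and Thy1-, median ratio (RLE) size factors, no filter on low counts and tags with 0 mismatches each called 1, miR-181b, DESeq2 called 2, and leaving out 1 library called between 0 and 3. With the replicate number as a block (replicate block) 0 were called, with log2 fold changes of -1.12, -1.61, -1.25 and -0.996 for miR-181a to miR-181d. Same-numbered libraries were not shown to be paired (correlation of their deviations -0.06 over 425 miRNAs). That correlation is over all miRNAs together. At C12T of miR-181a and C11T of miR-181c, the second library was above the first in both fresh groups. In the miR-34 and miR-449 sum it was below the first in both. Whether same-numbered libraries share a batch was not tested. In culture against Thy1+, total count scaling called 2 members and turned miR-181a to -0.39, miR-181a-1-3p to -1.13 and miR-181a-2-3p to -0.999. miR-181b, near 0 there, turned to 0.027 with RLE size factors, 0.093 without a filter, 0.055 with DESeq2 and 0.064 without tied tags, and ran from -0.57 to 0.21 with 1 library left out, changing sign without the first Thy1+ library. In culture against Thy1-, leaving out tied tags called 1 member, miR-181d, and turned miR-181a to 0.019. Leaving out 1 library called 0 to 2 members, and gave -0.90 to 0.98 for miR-181a, which changed sign without the second Thy1- library. For miR-181c-3p between the fresh fractions it gave -0.97 to 1.04. For the difference in share of the family (Thy1+ minus Thy1-, percentage points) it gave -7.79 to 11.6 for miR-181a, -1.33 to 0.520 for miR-181c, -5.89 to 15.01 for miR-181d, and -6.83 to -5.33 for miR-181b. The cause of these shifts was not tested. Of the alternative values for fold changes of single members and arms, 175 kept their direction and side of the threshold, 16 newly passed, 8 no longer passed and 12 changed sign.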
